A study of Mus musculus with 24 samples.

Results

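Livers of fed mice that drank 20% glucose for 24 hours were compared with livers of fed mice that drank tap water, across all genes measured on the array. The comparison uses 12 of the study's 24 mice, 6 on glucose and 6 on water, taken by their labels and by no measured value. All 24 were male wild-type C57Bl/6J mice of 8 weeks, fed chow unless fasted, housed in equal periods of light and dark and killed at ZT16, 16 hours after the lights came on. The other mice, 6 in each group, were either fed with 20% fructose in the drinking water or fasted for 24 hours. Every array held liver RNA of 1 mouse, so the replicates are animals, and the drink is what separates the groups in the labels. Food and fluid intake were not analysed here.

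Glucose that reaches the liver is phosphorylated and passes into glycogen, glycolysis, the pentose phosphate pathway or, through citrate, into newly made fatty acids. The factors ChREBP (Mlxipl) and SREBP-1c (Srebf1) are known to raise genes of glycolysis and lipid synthesis when carbohydrate and insulin are plentiful. ATF4 is a stress factor whose targets make and import amino acids and charge transfer RNA, and Fgf21 is a liver hormone known to be released in fasting and after sugar intake. Amino acid breakdown, the urea cycle and cytochrome P450 enzymes are among the functions that mark the hepatocyte.

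With glucose, the genes that make serine, the hormone gene Fgf21, the fucosyltransferase gene Fut1 and a set of lipid synthesis, pentose phosphate and tRNA synthetase genes rose. Other genes fell, most of them by less than 2-fold, among them genes of amino acid breakdown, the urea cycle, methionine metabolism and the P450 system. Of 23966 genes tested, 98 were called higher and 101 lower with the limma test over all genes (Benjamini-Hochberg adjusted p under 0.05), which is 0.83% of the genes tested in both directions, 0.409% higher and 0.421% lower. Of these, 32 rose and 7 fell by at least 2-fold. Among the called genes the median log2 fold change was 0.66 for those higher and -0.44 for those lower, beside -0.0047 over all genes tested. Over all genes tested, 11612 log2 fold changes were above 0 and 12348 were below. The 6 and 6 arrays did not overlap for 565 genes (2.36%), 223 higher (0.93%) and 342 lower (1.43%), and 78 of the genes called higher and 81 of those called lower were among them. With each array scaled to its median instead of its 75th percentile the split was 54 higher and 36 lower.

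The 12 arrays were alike in quality. Between 32519 and 36106 probes were well above background, correlations across genes ran from 0.99 to 0.995 within the groups and from 0.989 to 0.993 between them, and genes are not independent replicates. The 3 slides each carried 2 arrays of every group. The 199 called genes were chosen from these same arrays, so their signs on single slides are no separate check. All 199 had the same sign on each slide taken alone, as did 8631 of all genes tested, although no gene was called within a slide of 2 against 2 arrays. There the counts at an unadjusted p under 0.05 were 1846, 1623 and 2005, against 2743 of 23966 genes for the whole comparison. Counts of list members at that threshold, given below, stand beside this share over all genes. Counts of list members called stand beside 0.409% higher and 0.421% lower over all genes. Counts without overlap stand beside 0.93% higher and 1.43% lower. Every fit with 1 of the 12 mice left out gave fewer calls, 54 to 87 higher and 46 to 85 lower. Whether this came from the smaller groups or from single mice was not tested. Without water mouse 4, glucose mouse 1 or glucose mouse 2, the genes called higher numbered 54, 54 and 62, and without any 1 mouse other than water mouse 3 or glucose mouse 3 the genes called lower numbered 46 to 62. With any 1 of the 12 arrays left out, 49 of the genes called higher and 36 of those called lower kept their calls throughout. Below, a gene is said to hold if it was one of these, and for other genes the mice whose removal ended the call are given. For genes that held, the other settings that ended the call are named; some of the rest also lost their calls under other settings, not all of which are named. With the slide as a block Elovl6 was called and the calls of Sars, Fh1, Prodh2 and Hsd17b13, all described below, were lost.

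The label "liver" was checked against defining genes. All 10 hepatocyte markers were well above background on all 12 arrays, among them Alb, which encodes albumin and had log2 levels from 10.58 to 10.86 on water and from 10.57 to 10.71 on glucose. The mean level of the 10 hepatocyte markers ran from 8.87 to 8.98 on water and from 8.76 to 8.91 on glucose, and the groups overlapped. Of these 10, 1 was called lower, Cyp3a11, described below, and none higher, with 8 below 0. A level here is the log2 array signal relative to the 75th percentile of the same array, and it is compared only within a gene. In whole liver, fewer cells of a type and less RNA per cell cannot be told apart. Markers of cholangiocytes (8 measured), endothelium (10), stellate cells and fibroblasts (11), Kupffer cells and macrophages (10), lymphocytes (9), neutrophils (8), red cells (5), adipocytes (6), pancreatic acini (4) and skeletal muscle (2) gave no call in either direction with limma, and in these lists 5 genes in all passed an unadjusted p under 0.05. The 10 Kupffer and macrophage markers were all above 0 in log2 fold change, from 0.09 to 0.29, and their mean level ran from 2.59 to 3.10 on water and from 2.52 to 3.26 on glucose.

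**Figure D1:**
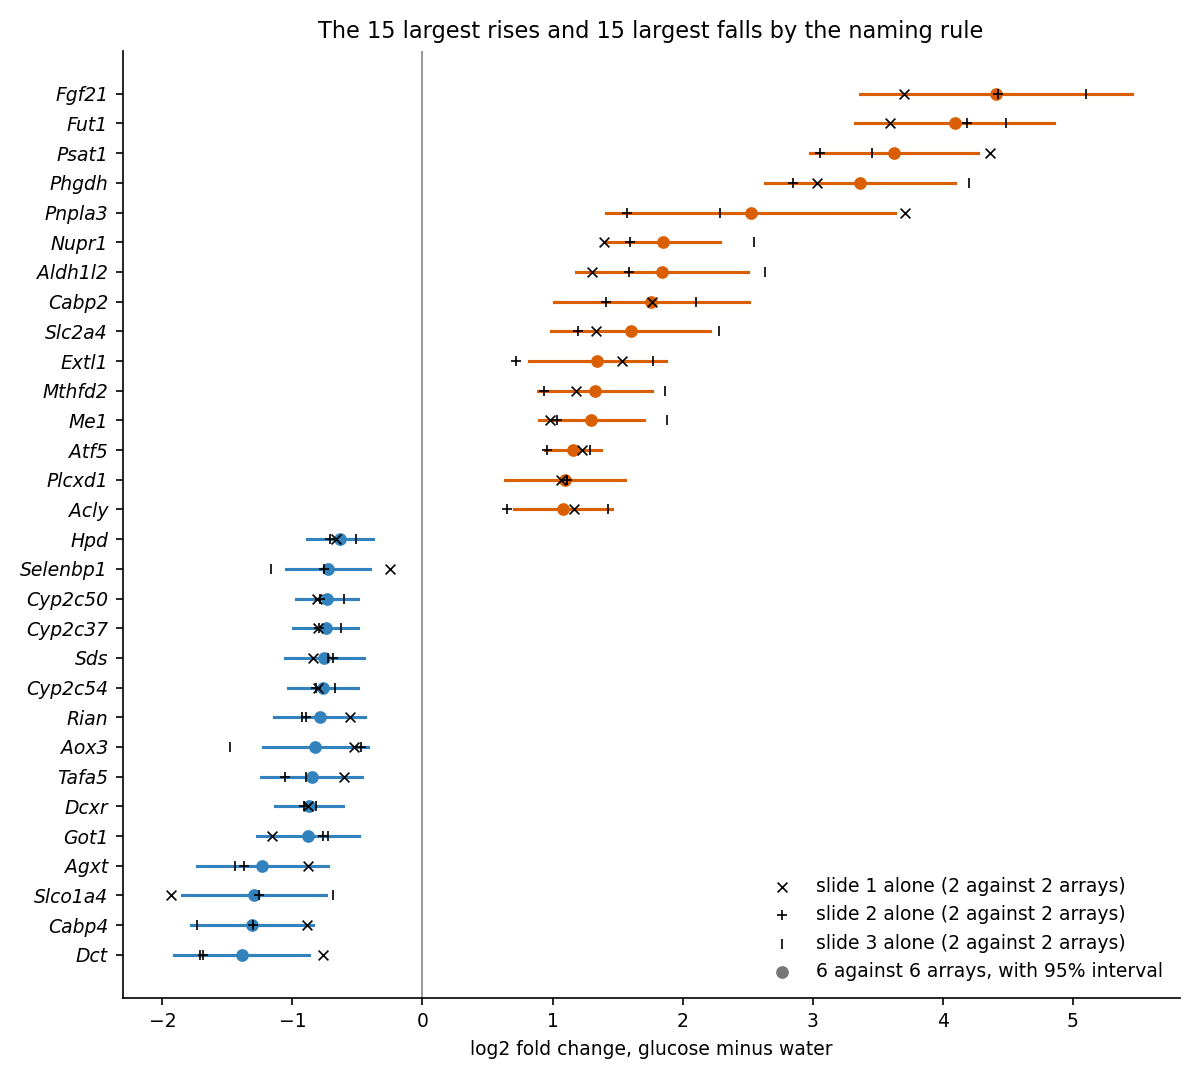
Log2 fold change of glucose against water (horizontal axis) for the called genes that rose most (15) or fell most (15) among those with a gene symbol, no overlap between groups and, in the higher group, 6 of 6 arrays well above background. Dots are the 6 against 6 comparison with its 95% interval and small marks are the 3 slides alone. Among the genes shown Fgf21 leads the rises at 4.41 and Dct the falls at -1.39, and every slide mark lies on the same side of 0 as its dot. The slides hold the same arrays from which the genes were called. Because the genes were picked for no overlap between the groups, the side of each slide mark was fixed in advance and is no check.

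The largest measured rise was in Fgf21, the fasting and sugar hormone of the liver, whose probe lies at chr7:52869305-52869364 (mm9). Its level lay between -3.87 and -2.07 (median -2.62) in mice on water and between 0.41 and 2.56 (median 1.43) in mice on glucose. Every mouse on glucose was above every mouse on water. The difference was 4.41 ± 0.50 (log2, SE, n = 6 and 6), or 21.2-fold, with an adjusted p of 2.41e-05 in limma, and it held.

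Fut1, which adds fucose to the ends of glycans, has its probe close by, at chr7:52876318-52876377 (mm9). No mouse on water had a Fut1 signal well above background (-7.01 to -5.23, median -6.20), and all 6 mice on glucose did (-2.56 to -1.30, median -2.29). The rise was 9.73-fold when each water array was set no lower than its dimmest probe above background (adjusted p = 1.33e-06, limma), and it held. Across the alternative settings the log2 difference of Fut1 ran from 1.13 to 4.49, so its size depends on the processing. Both genes were also high in fasted mice: the fasted mean was 1.78 ± 1.09 (SD, n = 6) for Fgf21 and -2.84 ± 0.88 for Fut1.

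**Figure D2:**
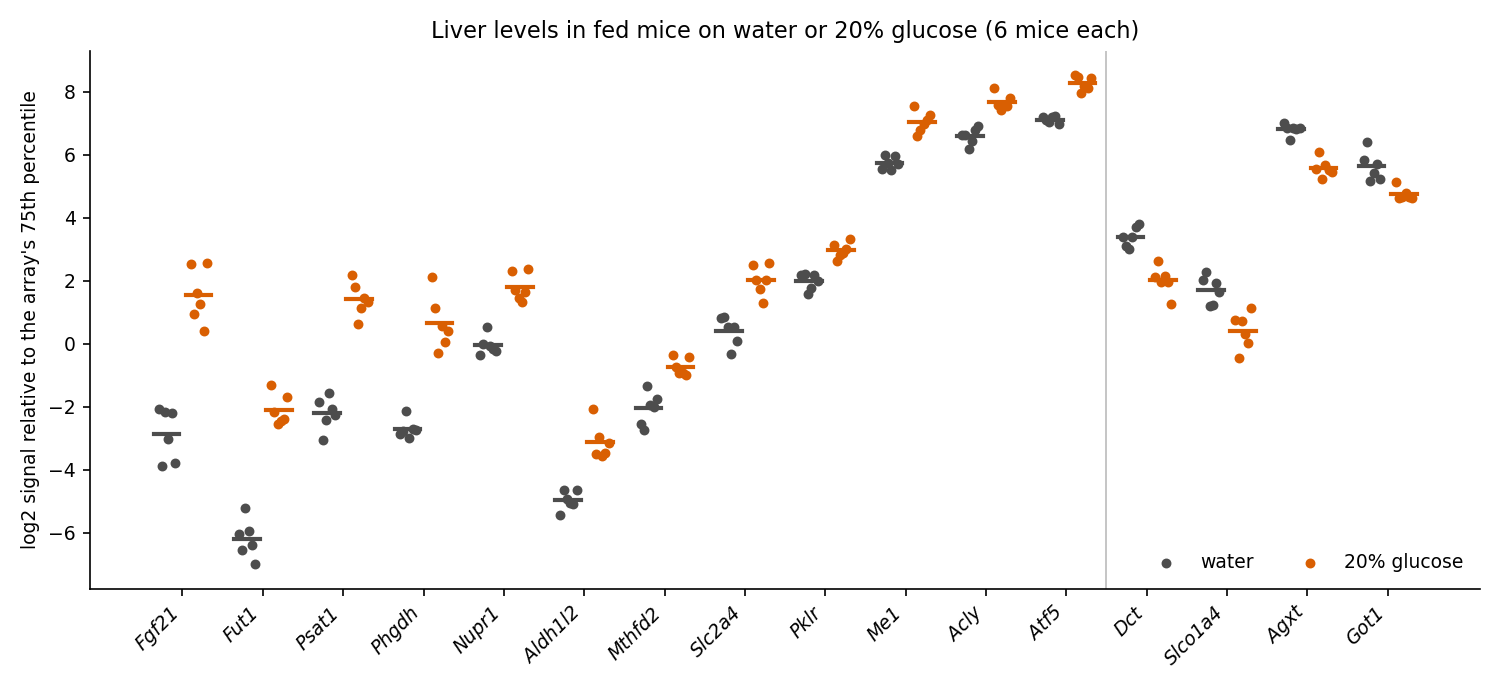
Log2 level of 16 genes in each of the 6 mice on water (grey) and the 6 on glucose (orange), with bars at the group means. Genes to the left of the vertical line rose and those to the right fell. Levels are comparable within a gene only, and no gene shown has overlapping groups.

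Serine is made from the glycolytic intermediate 3-phosphoglycerate in 3 steps, and all 3 genes rose. Phgdh encodes the first enzyme, Psat1 the aminotransferase of the second step and Psph the phosphatase of the last. Psat1 lay between -3.06 and -1.55 (median -2.17) on water and between 0.64 and 2.19 (median 1.38) on glucose. Phgdh lay between -2.98 and -2.13 (median -2.75) on water and between -0.30 and 2.13 (median 0.49) on glucose. In neither gene did the groups overlap, and glucose mice spread more widely in Phgdh than water mice did. The differences were 3.63 ± 0.31 (12.3-fold, adjusted p = 1.33e-06) for Psat1 and 3.36 ± 0.35 (10.3-fold, adjusted p = 1.1e-05) for Phgdh in the limma fit. Psph, at 0.95 to 1.66 on water and 1.85 to 2.26 on glucose, rose by less, 0.74 ± 0.10 (adjusted p = 1.87e-04, limma). The other 3 of the 6 measured genes of serine and glycine synthesis were not called, among them Shmt1, which interconverts serine and glycine in the cytosol (-0.05 ± 0.10, adjusted p = 0.908 in limma). All 3 rises held.

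Serine feeds the folate cycle, and 2 of its 14 measured genes rose while none fell, with a list median of -0.09. Both encode mitochondrial enzymes. Aldh1l2, the 10-formyltetrahydrofolate dehydrogenase of mitochondria, went from -5.42 to -4.63 on water to -3.57 to -2.06 on glucose (1.84 ± 0.32, adjusted p = 0.00481, limma), with 1 of 6 water arrays well above background. Mthfd2, the methylenetetrahydrofolate dehydrogenase and cyclohydrolase, lay at -2.73 to -1.34 on water and -0.98 to -0.37 on glucose (1.33 ± 0.21, adjusted p = 0.0019, limma). Neither gene's groups overlapped, and both rises held. Mthfd1l, the mitochondrial formate-releasing enzyme, stood at 0.62 ± 0.20 with an adjusted p of 0.166 in limma, and Aldh1l1, the cytosolic counterpart of Aldh1l2, at -0.30 ± 0.09 with an adjusted p of 0.11.

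Features named as predicted genes or by accession were outside the naming rule, and the 5 described here were chosen after their values were seen. They are shown by sequence because their probes share letters with each other or with the Phgdh probe, so that their signals may not be separate measurements. Gm8096 rose by 10.9-fold with the water arrays raised as for Fut1, and 0 of 6 water arrays were well above background (adjusted p = 1.1e-05, limma). Across the alternative settings its log2 difference ran from 1.06 to 4.81. Gm6756 rose by 3.53 ± 0.39 and NAP111644-1 by 3.37 ± 0.36 on the log2 scale. The probe sequences below come from the deposited array files, 5′ to 3′, with mm9 positions of chr3:98117098-98117157 for Phgdh, chr8:29193693-29193752 for Gm8096 and chr8:13745796-13745855 for NAP111644-1. Capitals mark the 31 bases that the Phgdh probe shares with the Gm6756 probe, and the 19 bases that the Gm8096 and NAP111644-1 probes share.
Phgdh: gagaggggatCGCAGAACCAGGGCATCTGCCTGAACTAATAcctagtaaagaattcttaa
Gm8096: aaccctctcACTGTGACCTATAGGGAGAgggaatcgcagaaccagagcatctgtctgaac
NAP111644-1: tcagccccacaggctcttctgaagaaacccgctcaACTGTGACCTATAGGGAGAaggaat
The Phgdh and Gm8096 probes also matched at 33 of 36 overlapping bases (91.7%) when laid side by side without gaps. The Phgdh and Gm8096 probes were compared with the probes that stand for all genes tested. Aside from the match of each to itself, only the Gm6756 and NAP111644-1 probes held a run of at least 15 bases in common with either. Both features rose, and both were chosen after their values were seen. A pair of accession-named features on chromosomes 7 and 2, whose probes share 26 bases with each other, rose by 3.29 ± 0.35 and 2.94 ± 0.33.

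ATF4 response genes were the next group. Of 23 measured, 2 were called higher and none lower, 17 had log2 fold changes above 0, and the median was 0.17. Atf5, a factor of the same stress response, lay between 6.98 and 7.23 (median 7.14) on water and between 7.95 and 8.53 (median 8.30) on glucose. Nupr1, a small stress-induced nuclear protein, lay between -0.36 and 0.54 (median -0.12) on water and between 1.34 and 2.36 (median 1.67) on glucose. Both sets of 6 mice were fully apart in both genes. Atf5 rose by 1.16 ± 0.10 (adjusted p = 1.33e-06) and Nupr1 by 1.85 ± 0.21 (adjusted p = 2.41e-05) in the limma fit, and both held. A second Nupr1 probe stood at -0.12, so the rise of Nupr1 rests on 1 of its probes.

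Asns, the asparagine synthetase, had levels of -0.76 to 1.57 (median 0.70) on water and 1.65 to 3.08 (median 2.29) on glucose. The groups did not overlap, and the difference of 1.76 ± 0.43 missed the threshold (adjusted p = 0.0577, limma). Atf4 itself stood at 0.21 ± 0.10 (adjusted p = 0.441), and the apoptosis and feedback genes Ddit3 and Trib3 at -0.09 ± 0.21 (adjusted p = 0.928) and 0.37 ± 0.21 (adjusted p = 0.55). Pck2, the mitochondrial phosphoenolpyruvate carboxykinase, rose from 0.05 to 0.40 on water to 0.97 to 1.55 on glucose (0.90 ± 0.11, adjusted p = 1.01e-04, limma) and held. Aldh18a1, the first enzyme of proline synthesis, was chosen after its values were seen; it rose by 1.03 ± 0.17 (adjusted p = 0.00378, limma).

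Of 20 cytosolic aminoacyl-tRNA synthetase genes, which charge transfer RNA with amino acids, 5 rose and none fell, 16 were above 0 and the median was 0.11. Cars, for cysteine, rose by 0.58 ± 0.11 (adjusted p = 0.0124), Mars1, for methionine, by 0.45 ± 0.07 (adjusted p = 0.00249) and Gars, for glycine, by 0.35 ± 0.05 (adjusted p = 0.00145) in limma. These 3 held and had no overlap between the groups. Nars and Sars, for asparagine and serine, rose by 0.31 ± 0.07 and 0.26 ± 0.06 with adjusted p of 0.0493 and 0.0466 (limma). Scaling to the median ended both calls. Without any 1 of water mice 1, 2, 4, 5 and 6 or glucose mice 1, 2 and 6 the count was 3; Nars also lost its call without glucose mouse 4 or 5, and Sars without water mouse 3. The 17 mitochondrial synthetase genes gave no call (4 at an unadjusted p under 0.05 in limma), with a median of -0.01 and 7 above 0.

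Amino acid transporters moved in both directions, with 1 of 16 measured genes higher and 2 lower. Slc6a9, a glycine transporter, rose by 0.46 ± 0.09 (adjusted p = 0.00967, limma). The cationic transporter gene Slc7a2 fell by 0.53 ± 0.11 (adjusted p = 0.0165) and Slc38a4, a system A carrier, fell by 0.40 ± 0.06 (adjusted p = 0.00103) in limma. None of the 3 had overlapping groups, although Slc7a2 came close, at 1.94 to 2.32 on water and 1.42 to 1.93 on glucose. Slc7a7, a subunit of the cationic and neutral amino acid exchanger and chosen after its values were seen, rose from 1.38 to 1.69 on water to 2.18 to 2.71 on glucose (0.83 ± 0.09, adjusted p = 1.1e-05, limma). All 4 held, and scaling to the median ended the call of Slc6a9.

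Chaperones of the endoplasmic reticulum, which another branch of the stress response controls, gave no call among 22 measured genes, with 6 lower at an unadjusted p under 0.05 in limma. Their median was -0.21, with 20 below 0. Hspa5, the main chaperone of that compartment, stood at -0.43 ± 0.14 (adjusted p = 0.165, limma), between 8.09 and 8.85 on water and between 7.79 and 8.44 on glucose. The mean level of the 22 genes overlapped between the groups, from 5.17 to 5.86 on water and from 5.08 to 5.64 on glucose.

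Promoter windows of 250 bases before to 50 bases after the start site, from RefSeq on GRCm38.p6, were available for 13772 of the genes tested, 70 of those called higher and 76 of those called lower. They were searched on both strands for 3 motifs, which were chosen after the values were seen. The amino acid response element of ATF4, TGATGNAA, was found in 8 of the 70 (11.4%), in 5 of the 76 (6.58%) and in 461 of all genes (3.35%). The 8 were 1810008I18Rik, Fgf21, Gars, Gpam, Hsd17b13, Nupr1, Pck2 and Slc7a7, and the 5 were Creb5, Cyp3a11, Dop1a, Got1 and Phyh. Psat1, Phgdh, Psph, Atf5, Mthfd2, Aldh1l2, Cars and Mars1 were not among the 8, and whether each had a window is not given here. The carbohydrate response element of ChREBP, searched as the boxes CACGNG and CNCGTG with 5 bases of any kind between them, was found in 1 of the 70 (1.43%, Pklr), in 0 of the 76 and in 6 of all genes (0.0436%). A sterol regulatory element, TCACNCCAC, was found in 1 of the 70 (1.43%, Brd1), in 1 of the 76 (1.32%, Gnmt) and in 193 of all genes (1.4%). These patterns do not overlap in their letters, some genes had several windows, and a match is a description of letters and not of binding. Windows of 4 genes that rose are printed 5′ to 3′ on the gene's strand, with the match in capitals. They lie at chr7:45615441-45615740 (minus strand) for Fgf21, chr7:126625421-126625720 (minus) for Nupr1, chr14:55540016-55540315 (plus) for Pck2 and chr3:89136373-89136672 (plus) for Pklr, the liver pyruvate kinase gene.
Fgf21: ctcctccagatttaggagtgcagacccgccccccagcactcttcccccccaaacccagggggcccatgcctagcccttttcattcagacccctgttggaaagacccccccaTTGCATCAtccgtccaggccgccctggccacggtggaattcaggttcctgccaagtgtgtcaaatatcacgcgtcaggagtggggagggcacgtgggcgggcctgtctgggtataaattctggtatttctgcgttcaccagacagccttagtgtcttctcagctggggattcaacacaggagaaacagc
Nupr1: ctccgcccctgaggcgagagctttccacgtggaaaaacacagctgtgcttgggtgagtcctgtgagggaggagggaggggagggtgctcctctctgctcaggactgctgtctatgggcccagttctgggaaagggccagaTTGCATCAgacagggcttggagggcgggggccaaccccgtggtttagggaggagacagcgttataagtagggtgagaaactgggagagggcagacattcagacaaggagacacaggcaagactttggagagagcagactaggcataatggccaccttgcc
Pck2: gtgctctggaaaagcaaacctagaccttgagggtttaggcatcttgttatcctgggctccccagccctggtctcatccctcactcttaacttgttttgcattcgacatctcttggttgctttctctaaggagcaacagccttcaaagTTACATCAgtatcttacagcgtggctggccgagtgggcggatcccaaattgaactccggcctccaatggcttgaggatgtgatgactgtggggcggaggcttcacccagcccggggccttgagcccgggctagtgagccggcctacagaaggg
Pklr: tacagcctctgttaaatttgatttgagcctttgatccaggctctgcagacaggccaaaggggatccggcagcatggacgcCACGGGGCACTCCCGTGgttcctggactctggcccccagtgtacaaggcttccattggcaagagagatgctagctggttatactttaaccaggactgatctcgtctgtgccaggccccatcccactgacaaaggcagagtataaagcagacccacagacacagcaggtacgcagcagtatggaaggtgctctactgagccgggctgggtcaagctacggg
The match in Fgf21, Nupr1 and Pck2 lies on the strand opposite to the gene, at -139, -110 and -103 bases from the start site, and that in Pklr on the gene's strand at -170.

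Glucose uptake and its first steps came next. Of 12 measured genes of uptake and phosphorylation, 2 rose and none fell (median 0.12). Slc2a4, the insulin-sensitive glucose transporter best known in muscle and fat, lay between -0.32 and 0.85 (median 0.52) on water and between 1.28 and 2.56 (median 2.02) on glucose. The groups were apart and the rise was 1.60 ± 0.29, or 3.04-fold (adjusted p = 0.00819, limma). Gckr, also of this list, rose by 0.33 ± 0.07 (adjusted p = 0.0154, limma). Both held, but scaling to the median ended the call of Gckr.

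In glycolysis 2 of 20 measured genes rose and none fell, with a median of 0.02. Pklr, the last enzyme of the pathway, lay between 1.59 and 2.23 (median 2.10) on water and between 2.63 and 3.34 (median 2.96) on glucose. Gpi1, the glucose-6-phosphate isomerase, lay between 7.08 and 7.44 (median 7.33) on water and between 7.87 and 8.37 (median 8.16) on glucose. Neither pair of groups overlapped. The rises were 0.98 ± 0.18 (adjusted p = 0.0081) and 0.83 ± 0.11 (adjusted p = 2.52e-04) in limma, and both held. Khk, the ketohexokinase that starts fructose use, rose by 0.48 ± 0.07 (adjusted p = 0.00156, limma), held, and was 1 of 2 genes called among 8 of fructose handling. The other, the triokinase gene Tkfc (0.61 ± 0.13, adjusted p = 0.0267), lost its call without water mouse 2, 3, 4 or 6 or glucose mouse 1, 2, 5 or 6, where the count was 1, and another probe for it stood at -0.03.

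Of 10 measured genes of the pentose phosphate pathway and pentose handling, 3 rose and 1 fell. Pgd, the 6-phosphogluconate dehydrogenase that yields NADPH, rose by 0.68 ± 0.13 (adjusted p = 0.0124) and Tkt, the transketolase, by 0.59 ± 0.10 (adjusted p = 0.00229) in limma. A second probe stood at -0.07 for Pgd and at 0.03 for Tkt. Rpia, the ribose-5-phosphate isomerase, rose by 0.90 ± 0.20 (adjusted p = 0.0285, limma), a call lost without water mouse 2, 3 or 5 or glucose mouse 1, 2, 4 or 6. G6pdx, the entry enzyme, stood at 0.37 ± 0.22 (adjusted p = 0.581). Dcxr, an L-xylulose reductase, fell from 4.22 to 4.46 on water to 3.30 to 3.68 on glucose, a difference of -0.87 ± 0.13 (adjusted p = 7.6e-04, limma). It held, as did Pgd and Tkt, but with the mean over all probes of a gene Pgd and Tkt were not called.

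Among 16 carbohydrate response genes 3 rose (Pklr, Pnpla3 and Tkfc), none fell and 14 were above 0, with a median of 0.24. Pnpla3, a lipid droplet protein, lay between -1.84 and 0.52 (median -0.01) on water and between 0.84 and 3.12 (median 2.41) on glucose. Its groups were apart and its rise was large but uneven, 2.52 ± 0.54, or 5.75-fold (adjusted p = 0.0246, limma). The call was lost without water mouse 2 or 5 or glucose mouse 2, 5 or 6 (adjusted p up to 0.0621), and without water mouse 2 or glucose mouse 2, 5 or 6 the count of the list was 1. The factor genes themselves were not called: Mlxipl stood at 0.19 ± 0.09 (adjusted p = 0.428) and Srebf1 at 0.11 ± 0.21 (adjusted p = 0.912). Txnip and Thrsp, both known to follow carbohydrate, stood at 0.25 ± 0.17 (adjusted p = 0.648) and 0.24 ± 0.24 (adjusted p = 0.785).

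**Figure D3:**
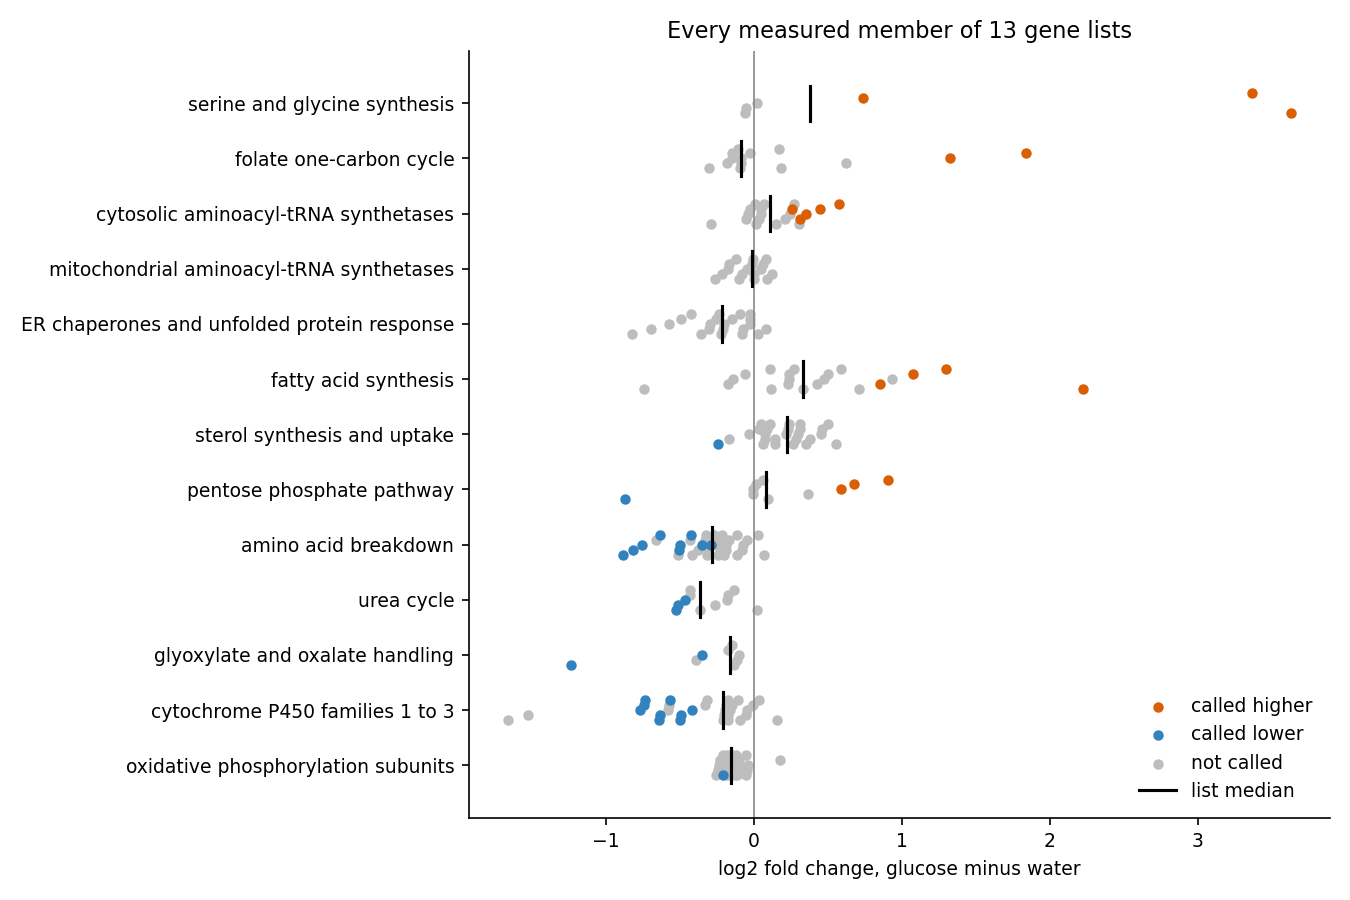
Log2 fold change of glucose against water (horizontal axis) for each measured member of 13 gene lists (rows). Orange and blue points were called higher and lower, grey points were not called, and black bars are list medians. The medians run from 0.38 for serine and glycine synthesis to -0.36 for the urea cycle, and the members called in a list all lie on one side of 0 except in pentose handling.

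Fatty acid synthesis had 4 of 21 measured genes called higher and none lower, with 17 above 0 and a median of 0.33. The 4 were Acly, Me1, Acaca and the lipase-family gene Pnpla5. Aside from the slides alone, the count of this list ranged from 3 to 7 over the other settings. Acly, which splits citrate into acetyl-CoA, lay between 6.18 and 6.92 (median 6.63) on water and between 7.42 and 8.13 (median 7.57) on glucose. Me1, the cytosolic malic enzyme that supplies NADPH, lay between 5.51 and 5.99 (median 5.73) on water and between 6.59 and 7.56 (median 7.05) on glucose. Acaca, the acetyl-CoA carboxylase of the committed step, lay between 5.58 and 5.74 (median 5.72) on water and between 6.38 and 6.87 (median 6.48) on glucose. In all 3 genes the lowest glucose mouse was above the highest water mouse. The rises were 1.08 ± 0.18 (adjusted p = 0.00346), 1.30 ± 0.20 (adjusted p = 0.00103) and 0.85 ± 0.14 (adjusted p = 0.00224) in limma, and all 3 held.

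The later steps were not called: Fasn, the fatty acid synthase, stood at 0.71 ± 0.19 (adjusted p = 0.0851), Elovl6, the elongase, at 0.93 ± 0.26 (adjusted p = 0.0938) and Scd1, the desaturase, at 0.48 ± 0.24 (adjusted p = 0.455). Fasn was nonetheless without overlap, at 8.67 to 9.45 on water and 9.60 to 9.99 on glucose. The lipase-family gene Pnpla5 rose by 2.22 ± 0.53 (adjusted p = 0.0487, limma) but its groups overlapped, at -0.03 to 1.93 and 1.43 to 3.72. That call was lost with any 1 of 10 mice left out, all but water mouse 6 and glucose mouse 3. Among 29 triglyceride and lipid droplet genes 2 were called, Pnpla3 and Gpam, the first enzyme of glycerolipid synthesis (0.66 ± 0.15, adjusted p = 0.0396, limma). Gpam lost its call without water mouse 1, 2, 3, 4 or 5 or glucose mouse 1, 2, 4 or 6, so the count was 0 or 1 without any mouse but water mouse 6 and glucose mouse 3.

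Sterol synthesis and uptake had 23 of 26 measured genes above 0 and a median of 0.22, with none called higher. Hmgcs1, which makes the HMG-CoA of this pathway, stood at 0.46 ± 0.24 (adjusted p = 0.484) and Fdps, the farnesyl diphosphate synthase, at 0.55 ± 0.29 (adjusted p = 0.489). At an unadjusted p under 0.05 the list held 2 genes higher and 1 lower. The 1 gene called was lower: Ebp, a sterol isomerase, at -0.24 ± 0.05 (adjusted p = 0.031, limma), lost without water mouse 1, 2, 5 or 6 or glucose mouse 1, 2, 3 or 6. Cyp7a1, the first and rate-limiting hydroxylase on the way to bile acids, lay between 3.69 and 4.43 (median 3.96) on water and between 2.18 and 2.97 (median 2.86) on glucose. These groups did not overlap, yet the difference of -1.28 ± 0.37 missed the threshold (adjusted p = 0.107, limma), and none of the 19 bile acid genes was called, while 5 were lower at an unadjusted p under 0.05. In the shared fit the spread comes from all 4 groups, and for Cyp7a1 the SD was 0.27 on water, 0.30 on glucose and 1.21 in fasted mice. With the 12 arrays alone Cyp7a1 was called.

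Several enzymes of amino acid breakdown fell. Of 36 measured genes 9 were lower (0.421% over all genes) and none higher, 34 were below 0, and the median was -0.28. Without overlap 16 were lower (1.43% over all genes). Sds, the serine dehydratase that turns serine into pyruvate, lay between 4.66 and 5.12 (median 4.81) on water and between 3.82 and 4.57 (median 4.00) on glucose. Hpd, the hydroxyphenylpyruvate dioxygenase of tyrosine breakdown, lay between 7.69 and 7.76 (median 7.73) on water and between 6.94 and 7.27 (median 7.09) on glucose. Both genes were lower in all 6 glucose mice than in any water mouse. Sds fell by 0.76 ± 0.15 (adjusted p = 0.0131) and Hpd fell by 0.63 ± 0.12 (adjusted p = 0.0131) in limma.

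Ivd, the isovaleryl-CoA dehydrogenase of leucine breakdown, stood at -0.51 ± 0.09 (adjusted p = 0.0081, limma), and Aldh4a1, the last enzyme of proline breakdown, at -0.42 ± 0.08 (adjusted p = 0.0081, limma). Sds, Hpd, Ivd and Aldh4a1 held, although the mean over its probes ended the call of Sds and scaling to the median that of Aldh4a1. Aass, the first enzyme of lysine breakdown, fell by 0.50 ± 0.10 (adjusted p = 0.0193) and lost its call without water mouse 2 or glucose mouse 4. Got1, the cytosolic aspartate aminotransferase, lay between 5.18 and 6.41 (median 5.56) on water and between 4.64 and 5.15 (median 4.65) on glucose, without overlap. Its difference of -0.88 ± 0.19 (adjusted p = 0.0257, limma) was lost without water mouse 1, 2 or 5 or glucose mouse 2, 3, 5 or 6. The list count was 5 without water mouse 2 or 5 or glucose mouse 2 or 6. Ddc, the decarboxylase of aromatic amino acids, was among the others called, at -0.82 ± 0.17 (adjusted p = 0.0257, limma), lost without water mouse 3, 4, 5 or 6 or glucose mouse 1, 2 or 6. The mean level of the 36 genes did not overlap between the groups.

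In the urea cycle and its ammonia supply 3 of 11 measured genes were lower (0.421% over all genes), none was higher, and the median was -0.36. Without overlap 7 were lower (1.43% over all genes). Ass1, the argininosuccinate synthase, lay between 9.26 and 9.49 (median 9.35) on water and between 8.73 and 8.99 (median 8.82) on glucose. Cps1, which makes carbamoyl phosphate from ammonia, lay between 6.70 and 7.14 (median 6.96) on water and between 6.33 and 6.54 (median 6.46) on glucose. Neither gene overlapped. Ass1 fell by 0.52 ± 0.07 (adjusted p = 6.69e-04) and Cps1 fell by 0.51 ± 0.10 (adjusted p = 0.0106) in limma, and both held. Gls2, the liver glutaminase, stood at -0.46 ± 0.10 (adjusted p = 0.02), a call lost without water mouse 5 or glucose mouse 2, 4 or 5 and with scaling to the median. Otc, the ornithine carbamoyltransferase, and Asl, the argininosuccinate lyase, just missed the threshold, at -0.36 ± 0.09 (adjusted p = 0.0593) and -0.43 ± 0.11 (adjusted p = 0.0599).

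Genes that mark hepatocytes near the portal vein include several of these enzymes, so their count is not independent of the preceding lists. Of 11 measured, 4 were lower (Sds, Ass1, Cps1 and Gls2) and 1 higher, with a median of -0.43. The 1 higher, the lipid droplet enzyme gene Hsd17b13, lost its call without any 1 mouse but water mouse 5 and glucose mouse 5. Of 11 genes that mark hepatocytes near the central vein 1 was lower, Cyp1a2, with a list median of -0.16; the count was 0 without water mouse 4 and 2 without glucose mouse 6. The mean levels of both lists overlapped between the groups, from 5.76 to 6.07 on water and from 5.45 to 5.83 on glucose for the portal list and from 3.27 to 3.47 and from 3.04 to 3.36 for the central list. The part of cell position in the falls was not tested.

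Methionine and glycine methyl metabolism had 3 of 15 measured genes lower and none higher (median -0.21). Ahcy, which splits S-adenosylhomocysteine, lay between 3.33 and 3.60 (median 3.48) on water and between 2.80 and 3.16 (median 2.90) on glucose. It fell by 0.54 ± 0.09 (adjusted p = 0.00367, limma), without overlap. Sardh, the sarcosine dehydrogenase, fell by 0.39 ± 0.08 (adjusted p = 0.0183, limma). Both held, but scaling to the median ended the call of Sardh. Gnmt, the glycine methyltransferase that makes sarcosine, fell by 0.51 ± 0.10 (adjusted p = 0.0196, limma), a call lost without water mouse 5 or glucose mouse 2 and with scaling to the median. Bhmt, which remethylates homocysteine with betaine, was lower without overlap at -0.93 ± 0.23 but missed the threshold (adjusted p = 0.0622).

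Agxt fell by more than 2-fold. It encodes the peroxisomal alanine-glyoxylate aminotransferase, which converts glyoxylate to glycine and keeps oxalate low. Its level lay between 6.49 and 7.02 (median 6.85) on water and between 5.23 and 6.08 (median 5.52) on glucose. The groups did not overlap, and Agxt fell by 1.23 ± 0.24 on the log2 scale, or 2.35-fold (adjusted p = 0.014, limma), and held. Of 8 measured genes of glyoxylate handling 2 were lower, all 8 were below 0 and the median was -0.16. The other was Prodh2, the hydroxyproline dehydrogenase (-0.35 ± 0.08, adjusted p = 0.0425, limma), and without any 1 mouse but water mouse 3 that call was lost and the count was 1.

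**Figure D4:**
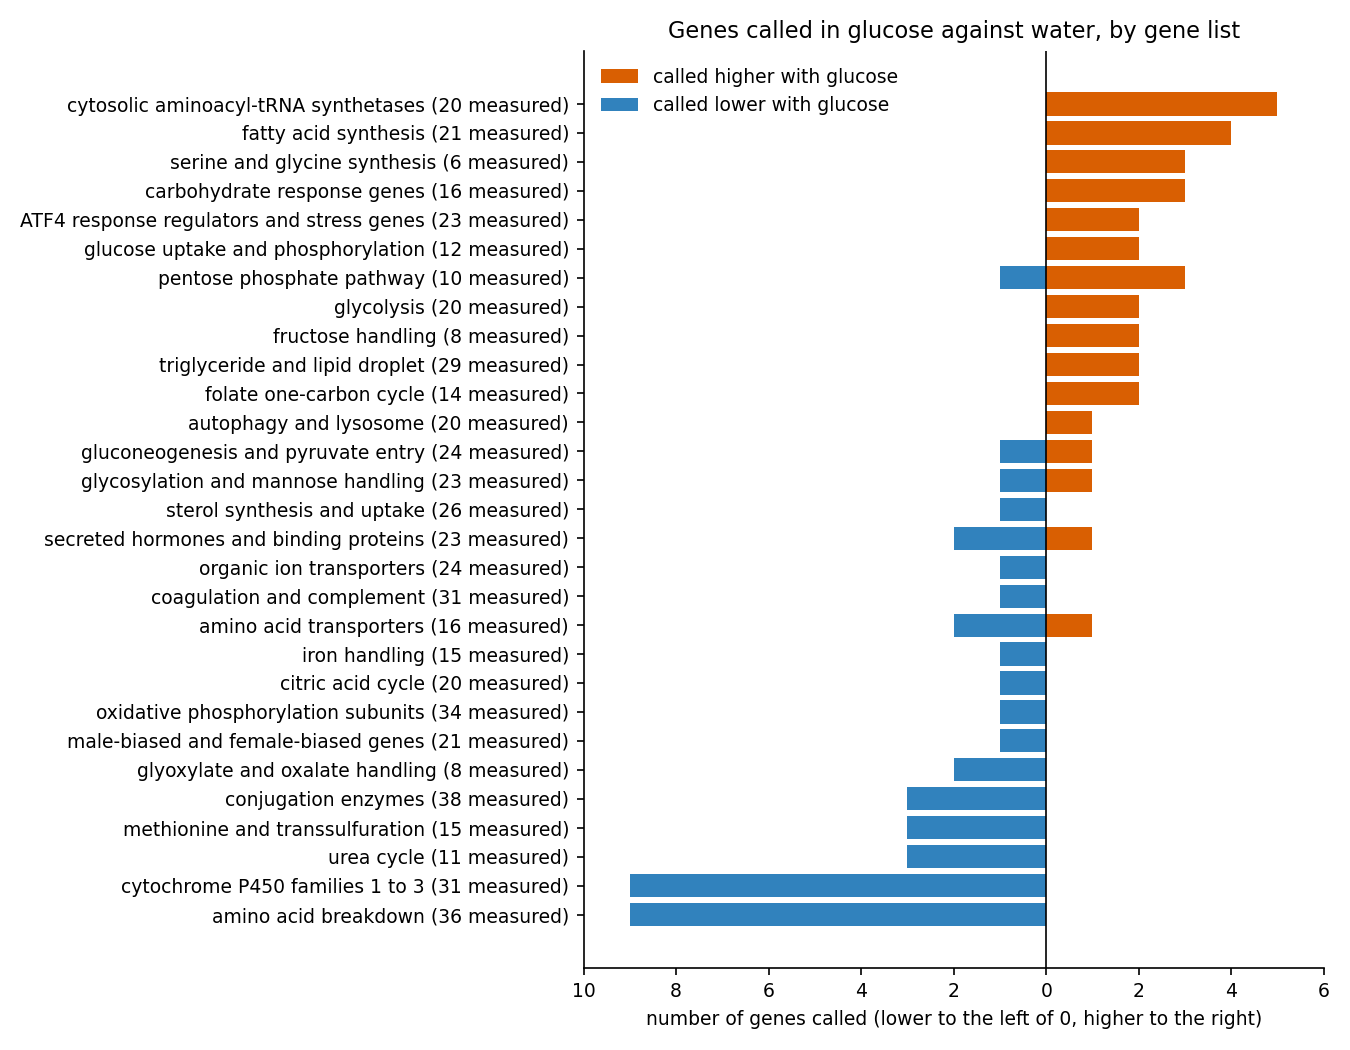
Number of genes called lower (blue, left of 0) and higher (orange, right of 0) in glucose against water for the gene lists, without the cell markers, that held at least 1 called gene. Labels give the number of measured genes in each list. The longest bars are 9 genes lower for amino acid breakdown and for cytochrome P450 families with their reductase, and 5 higher for cytosolic tRNA synthetases.

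Cytochrome P450 enzymes oxidise drugs, steroids and fatty acids. Of 31 measured genes of families 1 to 3 and their reductase 9 were lower and none higher, 29 were below 0, and the median was -0.21. Cyp2c37 lay between 7.73 and 8.11 (median 8.05) on water and between 6.99 and 7.50 (median 7.26) on glucose. Cyp2c54 lay between 6.58 and 7.27 (median 7.07) on water and between 6.02 and 6.49 (median 6.25) on glucose. Cyp2c50 lay between 7.29 and 7.67 (median 7.58) on water and between 6.53 and 7.07 (median 6.78) on glucose. All 3 were lower in every glucose mouse than in any water mouse. They fell by 0.74 ± 0.12 (adjusted p = 0.00229), 0.77 ± 0.13 (adjusted p = 0.00364) and 0.73 ± 0.12 (adjusted p = 0.0019) in limma, and all held. These genes are close copies of one another; their probes shared at most 12 bases in a row, and cross-hybridisation was not tested.

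Por, the reductase that passes electrons to all P450 enzymes of the endoplasmic reticulum, was chosen after its values were seen. It fell by 0.50 ± 0.10 (adjusted p = 0.0124, limma), without overlap at 7.15 to 7.62 on water and 6.72 to 6.96 on glucose, and held. Cyp1a2, known for caffeine oxidation, fell by 0.56 ± 0.11 (adjusted p = 0.0175, limma), a call lost without water mouse 4 (adjusted p = 0.056). Cyp3a11, Cyp3a16 and Cyp3a41a, of the main drug-oxidising family, fell by 0.64 ± 0.15, 0.63 ± 0.15 and 0.49 ± 0.11 with adjusted p of 0.0421, 0.0429 and 0.0299 (limma). Their probes shared at most 6 bases in a row, and cross-hybridisation with other transcripts was not tested here either. All 3 calls were lost without water mouse 2, 4, 5 or 6 or glucose mouse 1, 2, 5 or 6, and the first 2 also without water mouse 3. Without water mouse 2, 4 or 5 the list count was 5.

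Slco1a4, which takes up organic anions from blood, lay between 1.20 and 2.27 (median 1.78) on water and between -0.44 and 1.13 (median 0.52) on glucose. The groups did not overlap and the difference was -1.29 ± 0.27, or 2.45-fold lower (adjusted p = 0.0196, limma). The call was lost without water mouse 2 or 5 or glucose mouse 2 or 5 (adjusted p up to 0.0555). It was the only one called of 24 organic ion transporters, whose median was -0.03. Among 38 conjugation enzymes 3 were lower and none higher, with a median of -0.04 (0.0025 with quantile normalization). Gstk1, a mitochondrial and peroxisomal glutathione transferase, fell by 0.43 ± 0.09 (adjusted p = 0.0153, limma) and held, but scaling to the median ended the call. Nnmt, the nicotinamide methyltransferase, fell by 1.24 ± 0.30 (adjusted p = 0.0498, limma) with overlapping groups, 6.37 to 7.55 on water and 4.69 to 6.52 on glucose. Its call was lost without any 1 mouse but water mouse 1 and glucose mouse 2, and the list count was 1 without water mouse 2 or 5 or glucose mouse 3 or 4.

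Respiratory chain genes differed by little, nearly all of them in the same direction. Of 34 measured subunits of oxidative phosphorylation 1 was called, lower (0.421% over all genes), 33 were below 0, and the median was -0.16. Without overlap 17 were lower (1.43% over all genes). Cox8a, a subunit of cytochrome oxidase, lay between 8.54 and 8.59 (median 8.56) on water and between 8.24 and 8.40 (median 8.37) on glucose. It fell by 0.21 ± 0.04 (adjusted p = 0.0124, limma), without overlap, and held, but the call was lost with scaling to the median, with quantile normalization and in the authors' deposited series table. The mean level of the 34 genes ran from 6.98 to 7.10 on water and from 6.88 to 6.96 on glucose, without overlap. In the citric acid cycle 18 of 20 genes were below 0 (median -0.10) and 1 was lower, Fh1, the fumarase (-0.35 ± 0.08, adjusted p = 0.0492, limma), whose call was lost without any 1 mouse but water mouse 3; without that mouse the list count was 2. Of 31 proteasome genes 30 were below 0 (median -0.06) and of 34 cytosolic ribosomal protein genes 28 were above 0 (median 0.05), with no call in either list and 2 and 3 genes at an unadjusted p under 0.05 in limma. With quantile normalization the medians were -0.10 for oxidative phosphorylation, -0.02 for proteasome and 0.10 for ribosomal protein genes. Cox6a2, the muscle form of another cytochrome oxidase subunit and chosen after its values were seen, went the other way, from -2.84 to -2.18 on water to -1.91 to -0.90 on glucose (1.06 ± 0.15, adjusted p = 7.99e-04, limma).

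Among 23 secreted hormones and binding proteins 1 rose, Fgf21, and 2 fell. Igf1, the growth factor that the liver releases under growth hormone, fell by 0.33 ± 0.07 (adjusted p = 0.0153, limma), although another of its probes stood at 0.14 and the call was lost with scaling to the median or with the mean over its probes. Igfbp2, one of its binding proteins, lay between 6.13 and 6.51 on water and between 5.58 and 6.00 on glucose, without overlap, and fell by 0.44 ± 0.08 (adjusted p = 0.0106, limma). Both held. Igfbp1, a binding protein under insulin control, stood at 0.19 ± 0.47 (adjusted p = 0.936). Hamp, the iron hormone hepcidin, fell by 0.63 ± 0.14 (adjusted p = 0.0302, limma) as the only call among 15 iron genes, lost without any 1 of water mice 1 to 5 or glucose mice 1, 2, 4 and 5.

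Some large changes lay outside these lists. Dct, a tautomerase best known from melanin synthesis, lay between 3.02 and 3.79 (median 3.40) on water and between 1.26 and 2.61 (median 2.04) on glucose. Cabp4, a calcium-binding protein, lay between -3.87 and -2.49 (median -3.21) on water and between -4.95 and -4.18 (median -4.52) on glucose. Extl1, a glycosyltransferase of heparan sulphate synthesis, lay between -1.51 and -0.73 (median -1.14) on water and between -0.19 and 0.98 (median 0.14) on glucose. None of the 3 overlapped. The differences were -1.39 ± 0.25 (adjusted p = 0.00683), -1.31 ± 0.23 (adjusted p = 0.00454) and 1.34 ± 0.25 (adjusted p = 0.0106) in limma, and all held. Another Dct probe stood at 0.02, and the call of Cabp4 was lost with the mean over its probes. Htra4, a serine protease gene outside the naming rule and chosen after its values were seen, had the lowest fitted value of the genes called lower. It lay between -5.14 and -4.32 (median -4.62) on water, with 3 of 6 arrays well above background, and between -7.38 and -5.87 (median -7.07) on glucose, with 0 of 6. The groups did not overlap, and Htra4 was called lower (adjusted p = 0.0281, limma). With each glucose array set no lower than its dimmest probe above background, Htra4 was 1.68-fold lower. This is not a firm lower bound, because some water arrays were not well above background either. Across the alternative settings its log2 difference ran from -2.51 to -0.24. Its call was lost without any 1 mouse but water mouse 5 and glucose mouse 1, and with normexp background correction, the authors' deposited series table or the replicate number as a block. Cabp2, of the same calcium-binding family as Cabp4, rose by 1.76 ± 0.36 (adjusted p = 0.0191, limma), a call lost without glucose mouse 6 (adjusted p = 0.0531) and with normexp background correction.

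Several groups gave few or no calls with limma. Over all genes, 2743 of 23966 passed an unadjusted p under 0.05 in limma. Of 24 genes of gluconeogenesis and pyruvate entry, Pck2 was called higher and Got1 lower, while Pck1, the cytosolic carboxykinase, stood at -0.48 ± 0.20 (adjusted p = 0.352) and G6pc, the glucose-6-phosphatase, at 0.06 ± 0.22 (adjusted p = 0.964). None was called of 33 PPARA targets and fatty acid oxidation genes (26 below 0, median -0.15, 6 at an unadjusted p under 0.05), of 8 ketone body genes (median -0.05, 0 unadjusted) or of 20 glycogen genes (median 0.04, 7 unadjusted). The same held for lipoprotein genes (3 of 21 at an unadjusted p under 0.05), core clock genes (4 of 17), insulin signalling (2 of 20), glucocorticoid targets (2 of 14) and nuclear receptors (3 of 28). It held too for acute phase proteins (1 of 22), interferon-induced genes (2 of 28), cell cycle genes (2 of 25) and NRF2 targets (6 of 14, with 12 above 0). A missed threshold does not show equal levels: the 95% interval of a gene's difference reached, at the median, 0.24 to either side.

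The mice on fructose give a second sugar for reference. The comparisons of glucose and of fructose with water share the water mice, so the sugars are set side by side by their levels and by the direct test between them. That test called 0 of 23966 genes in limma, with a smallest adjusted p of 0.0672, while 1869 genes passed an unadjusted p under 0.05, 927 higher with glucose and 942 lower. Fgf21 had a mean of 1.56 ± 0.86 (SD, n = 6) on glucose, 0.60 ± 0.86 on fructose and -2.85 ± 0.83 on water. The glucose minus fructose difference of Fgf21 was 0.96, with a 95% interval of -0.08 to 2.01. Phgdh stood at 0.66 ± 0.87 on glucose, -0.58 ± 0.86 on fructose and -2.70 ± 0.30 on water, and its difference between the sugars of 1.24 had an interval of 0.51 to 1.97 and an adjusted p of 0.447 in limma.

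Among the falls, Agxt stood at 5.58 ± 0.29 (SD, n = 6) on glucose and 5.15 ± 0.78 on fructose against 6.81 ± 0.18 on water. Slco1a4 stood at 0.42 ± 0.57 on glucose, 1.38 ± 0.50 on fructose and 1.71 ± 0.44 on water, with a difference between the sugars of -0.97 (interval -1.52 to -0.41, adjusted p = 0.441, limma). Cyp2c54 stood at 6.27 ± 0.19 on glucose, 6.74 ± 0.31 on fructose and 7.04 ± 0.25 on water. For Cox6a2, at -1.51 ± 0.35 on glucose and -2.28 ± 0.20 on fructose, the difference of 0.77 had an adjusted p of 0.166 (limma). The fasted mice stood on either side: Psat1 was at -3.30 ± 0.39 in fasted mice and Asns at 2.82 ± 0.76, against -2.20 ± 0.52 and 0.60 ± 0.89 on water, and Cps1 at 8.04 ± 0.21 against 6.95 ± 0.14.

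**Figure D5:**
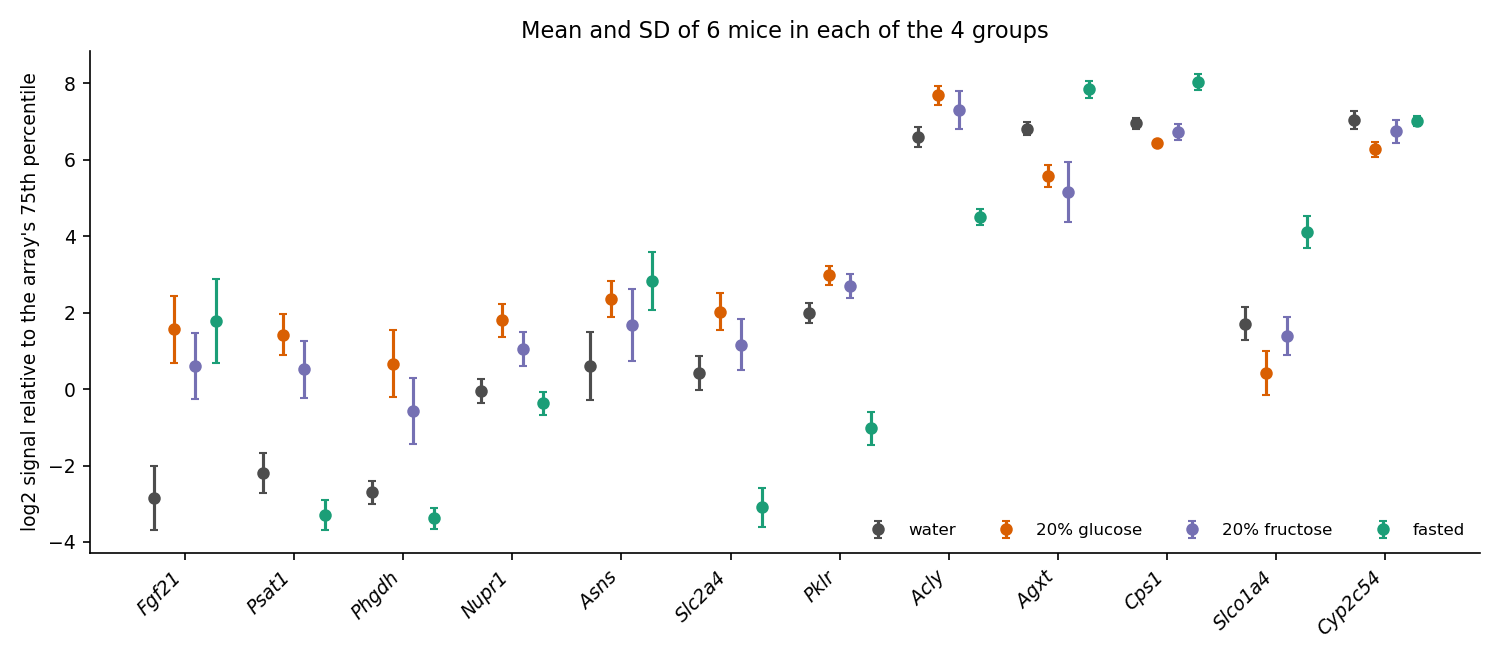
Mean log2 level with SD (6 mice each) of 12 genes in mice on water, 20% glucose, 20% fructose and after fasting. In Fgf21 the fasted and both sugar means lie above the water mean, whereas in Psat1, Phgdh, Slc2a4 and Pklr the fasted mean lies below it.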

How the data were processed

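Liver RNA of 24 mice was hybridised to 1-colour Agilent arrays, 1 mouse per array. The deposited scanner files hold a processed intensity per spot, background-subtracted by Feature Extraction 10.10.1.1 per the file headers. The authors' deposited series table holds log2 values whose normalization is not given in the sources used here, and the submitters' processing notes also name limma; it served as an alternative.

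Control spots and outlier-flagged spots were left out; 59305 of 62976 spots per array were not controls. Spots of a probe were averaged, log2 values were set against the 75th percentile of each array, and probes well above background on at least 6 of 24 arrays were kept (36229 of 56605). A gene is its kept probe with the highest mean. Names came from a RefSeq table of GRCm38.p6 (15655 genes by accession, 1736 by symbol, 103 by synonym; 6472 kept the array's name). Probe positions are mm9.

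All 24 arrays entered 1 limma fit (lmFit, eBayes) of group means without a block, with Benjamini-Hochberg adjustment over all genes. Intervals are 95%. The number of arrays limits the precision. Versions were R 4.3.3, limma 3.58.1 and, for data.table, 1.17.8. The steps were tested on simulated data. The lists (59 lists, 1046 symbols, 1014 measured) and the members were chosen with earlier results of these data known. Genes named are the 15 largest rises and falls among called genes with a symbol, no overlap and 6 of 6 arrays of the higher group above background, up to 5 per list, and a panel of 30; not all are given, and other genes are said to be chosen after their values were seen. Replicate numbers were not taken to pair mice.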

Additional observations from a re-analysis of the deposited data

Results flagged for a closer look

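In 14 of the 220 groups of 6 arrays checked (110 genes, on water and on glucose), 1 array stood far from the rest by Dixon's gap test. Chance marks about 1 in 20 groups, or 11 here, so the number of marked groups is near that level. Each array is given with the nearest other array of its group, as log2 levels.

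Among genes that rose, Phgdh was highest in water mouse 3, at -2.1276 against -2.72. Psph was highest in glucose mouse 1, at 2.2568 against 2.00. The lipase-family gene Pnpla5 was lowest in glucose mouse 3, at 1.4346 against 3.08, and that mouse was the one that fell within the water range.

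Among genes that fell, Sds was highest in water mouse 5 (5.123 against 4.83) and in glucose mouse 3 (4.5724 against 4.01). Got1 was highest in glucose mouse 1, at 5.1523 against 4.77. Gnmt was highest in water mouse 5, at 8.8588 against 8.68. Nnmt was lowest in glucose mouse 6, at 4.6949 against 5.87. Gstk1 (6.109 against 5.92) was highest and Hamp (8.1833 against 8.55) lowest in water mouse 6, and Cyp1a2 was lowest in glucose mouse 4 (3.4877 against 3.77).

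Among genes that were not called, Bhmt was highest in water mouse 6 (9.4839 against 9.20) and Txnip in water mouse 1 (4.3883 against 3.86). Thrsp was lowest in glucose mouse 3, at 8.9194 against 9.11.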

How the results depend on the processing

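The 98 genes higher and 101 lower with glucose became 54 and 36 with scaling to the median and 64 and 56 with no filter on dim probes, where 37008 genes were tested. They became 213 and 311 with array weights, and 0 and 0 within each of the 3 slides, where only 2 arrays met 2. The genes higher numbered 149 in the authors' deposited series table, and the genes lower 184 with only the 12 arrays and 185 with a trended robust prior. The other 8 settings stayed within 1.5 times of both counts, and normexp gave 132 and 149. Leaving out each array gave 54 to 87 higher and 46 to 85 lower. The 0 genes between glucose and fructose became 3 higher and 1 lower with normexp, 5 and 1 with array weights, and 1 and 1 with the mean of all probes or the trended prior. No filter, the strict filter and the 18 fed arrays each gave 1 lower, and leaving out an array gave 0 to 2 higher and 0 to 1 lower (the most without glucose mouse 3). With the replicate number as a block, 88 genes were higher and 82 lower, but the numbers were not taken as pairing: same-numbered water and glucose arrays correlated in their deviations at -0.174 to 0.132 (6 pairs, 3 above 0.1), and 2 of 12 arrays matched their own number best. For fructose and glucose arrays the range was -0.134 to 0.177 (2 of 6 pairs above 0.1), and 7 of 12 matched their own number best; the block gave 0 calls in limma there, with 1947 genes at an unadjusted p under 0.05. For the 110 genes named with values, no direction reversed where the gene was called in the main fit or in the alternative. Some genes called in neither changed sign, such as Igfbp1 (-0.12 to 0.52 with an array left out) and G6pc (-0.07 to 0.21). Outside the slides, 191 of 1320 results with an array left out and 104 of 1533 under other settings lost a call, and 1 and 35 gained one, among them Asns, Fasn and Cyp7a1. Only the 84 of these 110 genes called in the main fit could lose a call, so the totals also hold results that could not. Aside from the slides alone, the genes called lower in amino acid breakdown ranged from 5 to 17, in P450 families from 5 to 13, in the urea cycle from 2 to 7 and in oxidative phosphorylation from 0 to 6. The 3 serine genes were called throughout. The causes of these shifts were not tested. Signals near background leave the size of some rises uncertain, Fut1 and Gm8096 among them.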

Other observations

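The genes in these paragraphs were chosen after their values were seen. Pyrimidine breakdown ends in beta-alanine, and 2 of its genes fell with glucose. Upb1, which releases beta-alanine, lay between 7.63 and 8.05 (median 7.96) on water and between 7.40 and 7.61 (median 7.53) on glucose, without overlap. The difference was -0.38 ± 0.07 (adjusted p = 0.0081, limma). Dpyd, the first enzyme, lay between 6.50 and 6.67 on water and between 6.21 and 6.33 on glucose, also without overlap, and fell by 0.31 ± 0.06 (adjusted p = 0.0191, limma). The call of Dpyd was lost without water mouse 2 or 5, and scaling to the median ended both calls.

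Transcripts of the mitochondrial genome stood beside the nuclear respiratory chain genes. ND2, a subunit of complex I, lay between 8.44 and 8.63 on water and between 8.21 and 8.38 on glucose and fell by 0.24 ± 0.05 (adjusted p = 0.0146, limma). Uqcrh, a nuclear-encoded subunit of complex III, lay between 8.22 and 8.34 on water and between 8.01 and 8.08 on glucose and fell by 0.22 ± 0.04 (adjusted p = 0.0153, limma). Neither gene had overlapping groups. ND4L stood at -0.29 ± 0.06 (adjusted p = 0.0228), a call lost without water mouse 1, 4 or 5 or glucose mouse 1, 2 or 4. Scaling to the median ended the calls of all 3, and quantile normalization those of ND2 and ND4L. The call of ND2 was also lost in the authors' deposited series table, and that of ND4L with only the 12 arrays.

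Cyp39a1, an oxysterol hydroxylase, rose, whereas 8 of the 30 measured P450 genes listed from families 1 to 3 fell and none rose. It lay between 3.08 and 4.07 (median 3.63) on water and between 4.34 and 4.86 (median 4.61) on glucose, without overlap. The rise was 1.01 ± 0.21 (adjusted p = 0.0193, limma), a call lost without water mouse 4 or glucose mouse 1 and with the replicate number as a block.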
